A study of Mus musculus with 6 samples.

Results

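34 mouse genes that mark microglia or belong to the complement system, with the growth factors and ligands that address microglia, were examined in the newborn cerebellum. They were taken by gene symbol from a table of 54532 genes, all 34 were found there, and all 34 passed the filter on low counts, 32 of them by reaching its minimum in every library. The libraries were made from cerebella at postnatal day 1 (P1) by bulk sequencing of mRNA, 3 from controls of genotype *Tox3f/f* and 3 from mutants of genotype *Nestin-Cre;Tox3f/f*. *Tox3* encodes a nuclear HMG-box protein. Both groups carry the floxed *Tox3* alleles, and the mutants alone carry *Nestin-Cre*, a transgene that expresses Cre recombinase in neural precursors and their descendants, so effects of the transgene and of the deletion cannot be told apart.

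Microglia are the resident macrophages of the brain. They descend from yolk sac progenitors rather than from neural precursors, and they live on signals through the receptor Csf1r. In the first days after birth they clear dying cells and surplus synapses, and the complement protein C1q, made mainly by microglia in the brain, tags material for removal. Related macrophages live along the brain's borders, in the meninges and around vessels.

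The labelled tissue was checked against markers. The libraries held 15391854 to 17178478 counts, of which 3 counts, used as the limit of detection, correspond to at most 0.196 CPM, the count of a gene scaled to a common, normalized library size. The count of *Tox3* itself does not check the labels: it was 64.3, 63.0 and 64.4 CPM in controls and 55.3, 63.2 and 59.2 CPM in the libraries labelled mutant (log2 fold change −0.11, adjusted p = 0.252). Here and below, p-values come from edgeR's quasi-likelihood fit over all tested genes and are adjusted after Benjamini and Hochberg. The 7 marker genes of granule neuron progenitors, the dividing precursors of the outer cerebellum, summed to 1174 to 1285 CPM in controls and 399 to 462 CPM in mutants. The sexes were mixed, with the Y-linked gene *Ddx3y* counted in control 1, mutant 1 and mutant 3.

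The 34 genes were counted at low levels. Together they made up 294 to 307 CPM in controls and 367 to 379 CPM in mutants, a fold of 1.25 between the group means. 13 of them stayed under 100 counts in every library, and the lowest count of any was 4. Levels between genes were compared as FPKM, which divides by gene length. The most abundant were the 3 chains of C1q, with *C1qb* at a mean of 17.6 FPKM over the 6 libraries, *C1qa* at 15.3 and *C1qc* at 9.42. The signalling adaptor *Tyrobp* at 9.08 FPKM, *Csf1r* at 8.52 and the Fc receptor subunit *Fcer1g* at 7.99 followed. The least abundant were the panleukocyte phosphatase *Ptprc* at 0.2497 FPKM, the complement component *C3* at 0.222 and the glycoprotein gene *Gpnmb* at 0.156. The homeostatic receptor gene *P2ry12*, by which settled microglia are usually recognized, stood at 2.79 FPKM and *Tmem119* at 1.51, so defining microglial markers were present in both groups at low levels.

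**Figure D1:**
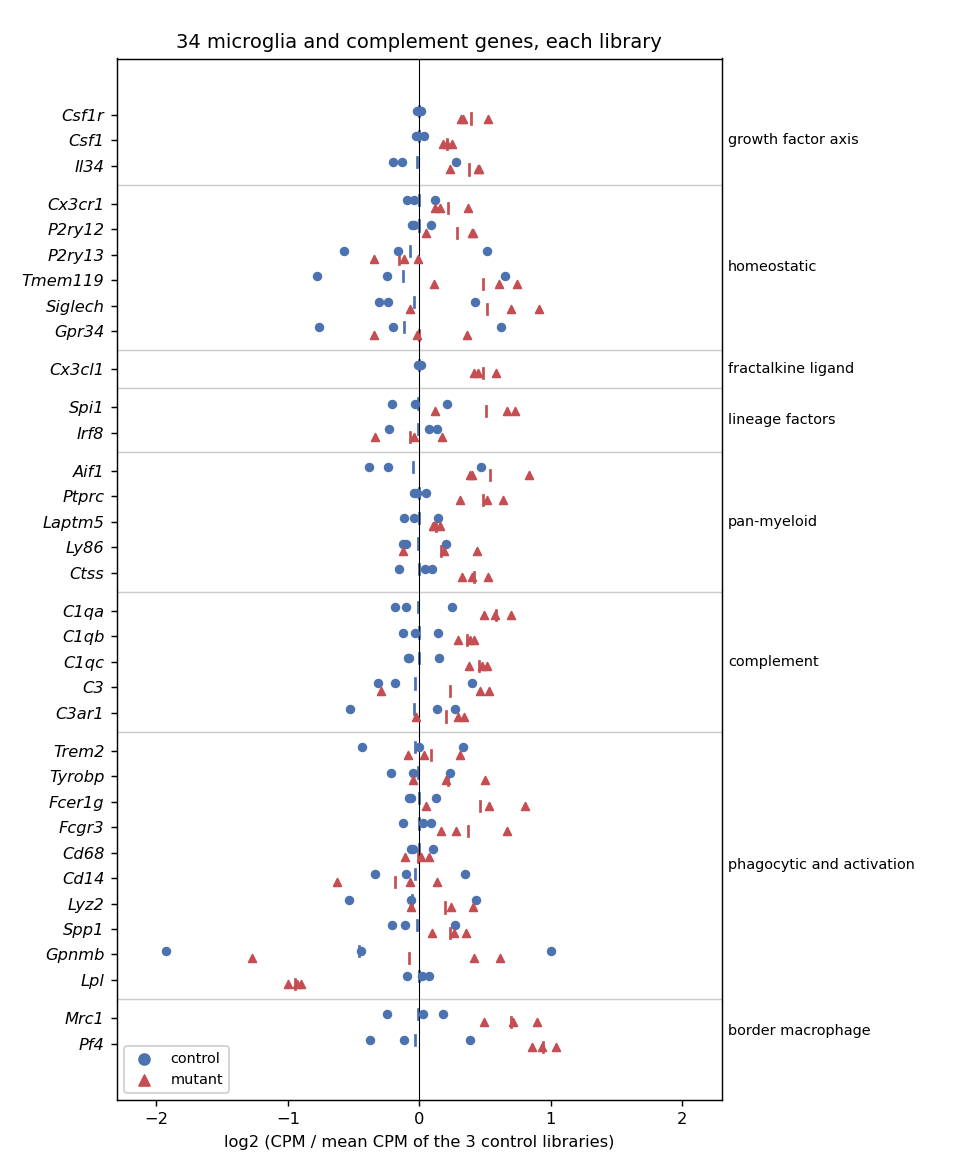
CPM of each of the 34 genes in each library, as the log2 ratio to the mean of the 3 controls on the horizontal axis, with genes grouped by class, circles for controls, triangles for mutants and a vertical bar for the mean of each group. Most mutant triangles lie to the right of 0, those of *Lpl* lie well to its left, and low genes such as *Gpnmb* scatter widely in both groups.

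Across the group, small differences toward the mutant were common and differences of large size were few. 29 of the 34 genes had a higher fitted value in mutants and 5 a lower one, where 49.1% of all 17505 tested genes were higher. The median log2 fold change of the 34 was 0.29, and that of all tested genes was −0.0070. With the study's thresholds, which ask for a log2 fold change beyond 0.5 and an adjusted p under 0.01, 4 of the 34 were called (11.8%), and 6.66% of all tested genes were called in either direction. These were *C1qa*, *Mrc1* and *Pf4*, which rose (3.03% of all genes did), and *Lpl*, which fell (3.63% did). At an adjusted p under 0.05 with no limit on fold, 9 of the 34 passed (26.5%), and the share over all tested genes was 25.1%. Of these, 8 were higher in mutants (23.5%, against 12.2% of all genes) and 1 was lower (12.9% of all genes). The 8 were *Csf1r*, *Cx3cl1*, *Ctss*, *C1qa*, *C1qb*, *C1qc*, *Mrc1* and *Pf4*. With DESeq2, 8 of the 34 passed at this level. In 11 genes (32.4%) all mutant libraries lay above all controls, which held for 20.4% of all tested genes, and in 1 gene all lay below, which held for 20.1%, together 40.5% of all genes. In this bulk RNA, fewer or more cells of a type cannot be told apart from less or more RNA per cell. The number called at the stricter thresholds fell to 1, *Lpl* alone, when control 1 was left out, and to 2 without control 3, mutant 1 or mutant 3.

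**Figure D2:**
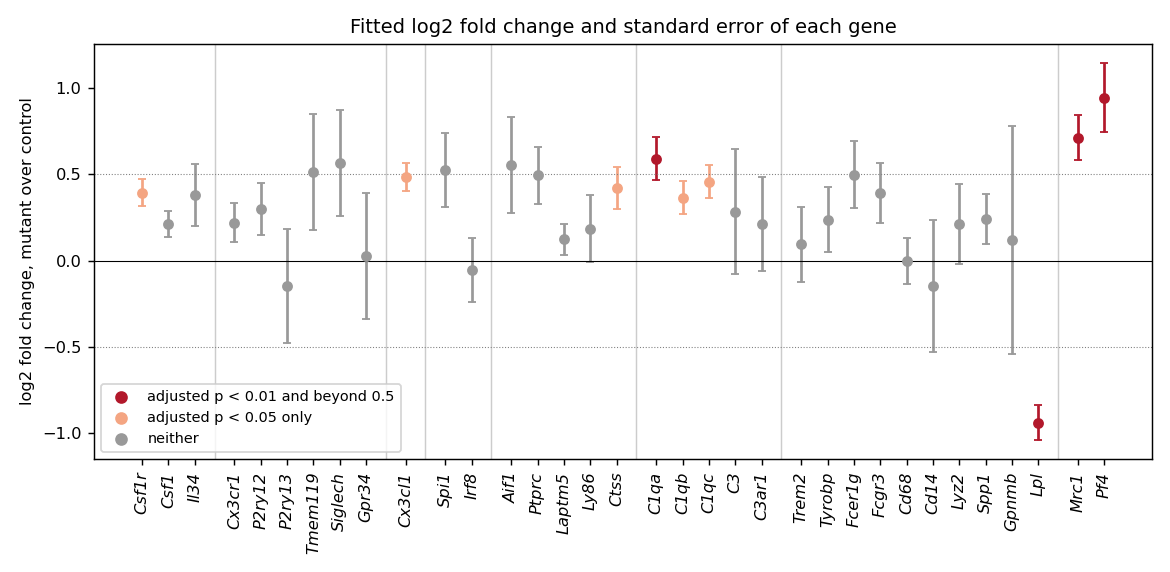
Log2 fold change of mutant over control for each of the 34 genes, with its standard error, ordered by functional class. 29 of the 34 points lie above 0, *Pf4* is highest at 0.95 and *Lpl* is lowest at −0.94.

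The receptor that keeps microglia alive was higher in mutants. *Csf1r* (ENSMUSG00000024621), the receptor for the growth factors Csf1 and Il34, was counted at 35.7, 36.3 and 36.5 CPM in controls and at 45.0, 45.6 and 52.0 CPM in mutants. The lowest mutant lay well above the highest control, and the mutants were spread more widely than the controls. The log2 fold change was 0.39 with a standard error of 0.08 (adjusted p = 0.00507, edgeR), below the fold threshold of 0.5. It passed an adjusted p of 0.05 in all 15 other fits run, with each library left out among them. Relative to the summed CPM of the 6 homeostatic genes given below, *Csf1r* stood at 1.29, 1.26 and 1.34 in controls. In mutants it stood at 1.36, 1.48 and 1.40, narrowly without overlap. Border macrophage genes, also given below, rose as well, and the part of border macrophages in the *Csf1r* difference was not tested. 871 bases of the table's *Csf1r* span overlap *Hmgxb3* on the opposite strand, and whether reads were counted by strand is not given.

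Both ligands of Csf1r came out higher, and neither passed in the edgeR fit used throughout. *Csf1*, made by glia and neurons, was counted at 23.9, 23.6 and 24.7 CPM in controls and at 27.3, 28.5 and 27.9 CPM in mutants. The groups did not overlap, but the difference was small, with a log2 fold change of 0.21 (adjusted p = 0.0627, edgeR). *Csf1* passed 0.05 in 2 of 15 other fits, with library size alone (0.0474) and with at least 10 counts in every library (0.0467). *Il34*, the ligand made mainly by neurons in the brain, was counted at 5.53, 3.97 and 4.17 CPM in controls and at 5.36, 6.26 and 6.23 CPM in mutants. Control 1 lay within the mutant range, and the log2 fold change of 0.38 had an adjusted p of 0.152.

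The fractalkine pair, a ligand on neurons and its receptor on microglia, differed in what passed. The ligand *Cx3cl1* (ENSMUSG00000031778) was counted at 20.5, 20.8 and 20.5 CPM in controls and at 28.1, 27.5 and 30.8 CPM in mutants. The lowest mutant lay above the highest control, and the mutants were spread more widely than the controls. *Cx3cl1* rose by a log2 fold change of 0.48 with a standard error of 0.08 (adjusted p = 0.00202, edgeR). Markers of a neuron type moved in the same direction, with 6 of 7 Purkinje cell markers higher at an adjusted p under 0.05 (12.2% of all genes were) and their sum at 1529 to 1663 CPM in controls and 2123 to 2607 CPM in mutants. The part of Purkinje cells in the *Cx3cl1* difference was not tested. The receptor *Cx3cr1* was counted at 11.7, 12.1 and 13.5 CPM in controls and at 13.9, 13.5 and 16.1 CPM in mutants. Control 3 lay just above the lowest mutant, and the log2 fold change of 0.22 had an adjusted p of 0.186. The span given to *Cx3cr1* in the table also overlaps other expressed genes, *Gorasp1* and *Csrnp1* on its own strand among them, so its counts are the less certain of the pair.

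Genes of the settled, homeostatic microglial state leaned higher without any passing. The class holds *Cx3cr1*, the purinergic receptors *P2ry12* and *P2ry13*, the membrane protein *Tmem119*, the lectin *Siglech* and the lysophospholipid receptor *Gpr34*. 5 of the 6 were higher in mutants, the median log2 fold change was 0.26, and none passed an adjusted p of 0.05 with edgeR, DESeq2 or limma, nor an unadjusted p of 0.05 with edgeR. Their summed level was 27.8, 28.9 and 27.2 CPM in controls and 33.2, 30.8 and 37.2 CPM in mutants, a fold of 1.21. The sums of the groups did not overlap, while each of the 6 genes taken alone did. *P2ry12*, which senses nucleotides from injured cells, was counted at 6.84, 6.18 and 6.23 CPM in controls and at 8.54, 6.65 and 8.47 CPM in mutants (log2 fold change 0.30, adjusted p = 0.175, edgeR). *P2ry12* and *P2ry13* lie inside *Med12l*, and *Gpr34* inside *Cask*, on the opposite strand in each case. *Tmem119* ranged from 1.69 to 4.56 CPM among controls alone, and its log2 fold change of 0.51 had a standard error of 0.34. *Siglech* was similar, at 0.56 with a standard error of 0.31, and *Gpr34* was at 0.03.

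Transcription factors and general myeloid genes showed a mixed picture. *Spi1*, which encodes PU.1, the factor on which all macrophages depend, was counted at 3.12, 3.52 and 4.17 CPM in controls and at 3.92, 5.73 and 5.98 CPM in mutants. Mutant 1 lay within the control range, and the log2 fold change of 0.53 had an adjusted p of 0.102 (edgeR). *Spi1* passed 0.05 in 1 of 15 other fits, that without mutant 1 (0.0464). *Irf8*, the interferon regulatory factor that acts with PU.1, had a log2 fold change of −0.05. All 5 general myeloid genes were higher in mutants, with a median of 0.42. Their sum was 38.8 to 41.7 CPM in controls and 47.1 to 50.8 CPM in mutants, without overlap. Of the 5 genes only *Ctss*, a lysosomal cysteine protease, passed. It was counted at 7.62, 8.72 and 9.05 CPM in controls and 10.6, 11.2 and 12.1 CPM in mutants. Its groups were separate and its log2 fold change was 0.42 with a standard error of 0.12 (adjusted p = 0.0312, edgeR). At 0.05 the call was lost with DESeq2 (adjusted p = 0.0799) and without control 1 (0.102), control 2 (0.0669), mutant 1 (0.0516), mutant 2 (0.0518) or mutant 3 (0.110). *Ptprc*, which encodes CD45, was also separate between the groups, at 3.72 to 3.97 CPM in controls and 4.73 to 5.94 CPM in mutants, with an adjusted p of 0.0564. *Aif1*, whose product Iba1 is the usual stain for microglia, had a log2 fold change of 0.55 with a standard error of 0.28, *Laptm5* of 0.12 and *Ly86* of 0.19.

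The 3 chains of C1q, the recognition molecule that starts the classical complement pathway, rose together. On GRCm38 their genes lie side by side on chromosome 4, all on the minus strand, *C1qb* (ENSMUSG00000036905) at chr4:136880129-136886187, *C1qc* (ENSMUSG00000036896) at chr4:136889804-136893065 and *C1qa* (ENSMUSG00000036887) at chr4:136895917-136898803. *C1qa* was counted at 11.3, 11.9 and 15.2 CPM in controls and at 19.0, 17.99 and 20.7 CPM in mutants. *C1qb* was counted at 16.5, 18.6 and 15.4 CPM in controls and at 22.4, 20.6 and 21.9 CPM in mutants. *C1qc* was counted at 14.6, 17.1 and 14.5 CPM in controls and at 20.1, 22.1 and 21.4 CPM in mutants. In each of the 3 genes the lowest mutant lay above the highest control. The log2 fold changes were 0.59 ± 0.12 (± standard error, adjusted p = 0.00693) for *C1qa*, 0.37 ± 0.10 (adjusted p = 0.0196) for *C1qb* and 0.46 ± 0.10 (adjusted p = 0.00728) for *C1qc*, all from edgeR. *C1qa* and *C1qc* passed an adjusted p of 0.05 in all 15 other fits. *C1qb* did not pass without control 1 (0.0578), control 3 (0.0694), mutant 1 (0.0777) or mutant 3 (0.0648). *C1qa* no longer met the stricter adjusted p of 0.01 without control 1 (0.0271), control 2 (0.0315), mutant 1 (0.0234) or mutant 3 (0.0323).

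The C1q chains were also compared with one another and with other genes of the same cells. The ratio of *C1qb* to *C1qc* was 1.88 to 1.996 in controls and 1.65 to 1.98 in mutants on the FPKM scale, and that of *C1qa* to *C1qc* was 1.29 to 1.94 and 1.51 to 1.79, so the balance of the chains overlapped between the groups. The sum of the 3 chains was 42.4, 47.6 and 45.1 CPM in controls and 61.5, 60.7 and 64.0 CPM in mutants, a fold of 1.38. Divided by the sum of the 6 homeostatic genes, it was 1.52, 1.65 and 1.66 in controls and 1.85, 1.97 and 1.72 in mutants, with no overlap. Divided by the sum of the border macrophage genes *Mrc1* and *Pf4*, it was 1.71, 1.67 and 2.20 in controls and 1.34, 1.45 and 1.78 in mutants, which overlapped. Border macrophages can also express C1q, and their part in its difference was not tested.

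The central component of the cascade was hardly present. *C3*, which is cleaved and deposited on tagged material, was counted at 13 to 26 counts per library, or 0.835 to 1.37 CPM in controls and 0.847 to 1.4996 CPM in mutants. These ranges nearly coincide, and the log2 fold change of 0.28 had a standard error of 0.36. *C3ar1*, the receptor for the fragment C3a, was at 1.497 to 2.60 CPM in controls and 2.12 to 2.74 CPM in mutants. At this depth neither gene showed a detectable difference.

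**Figure D3:**
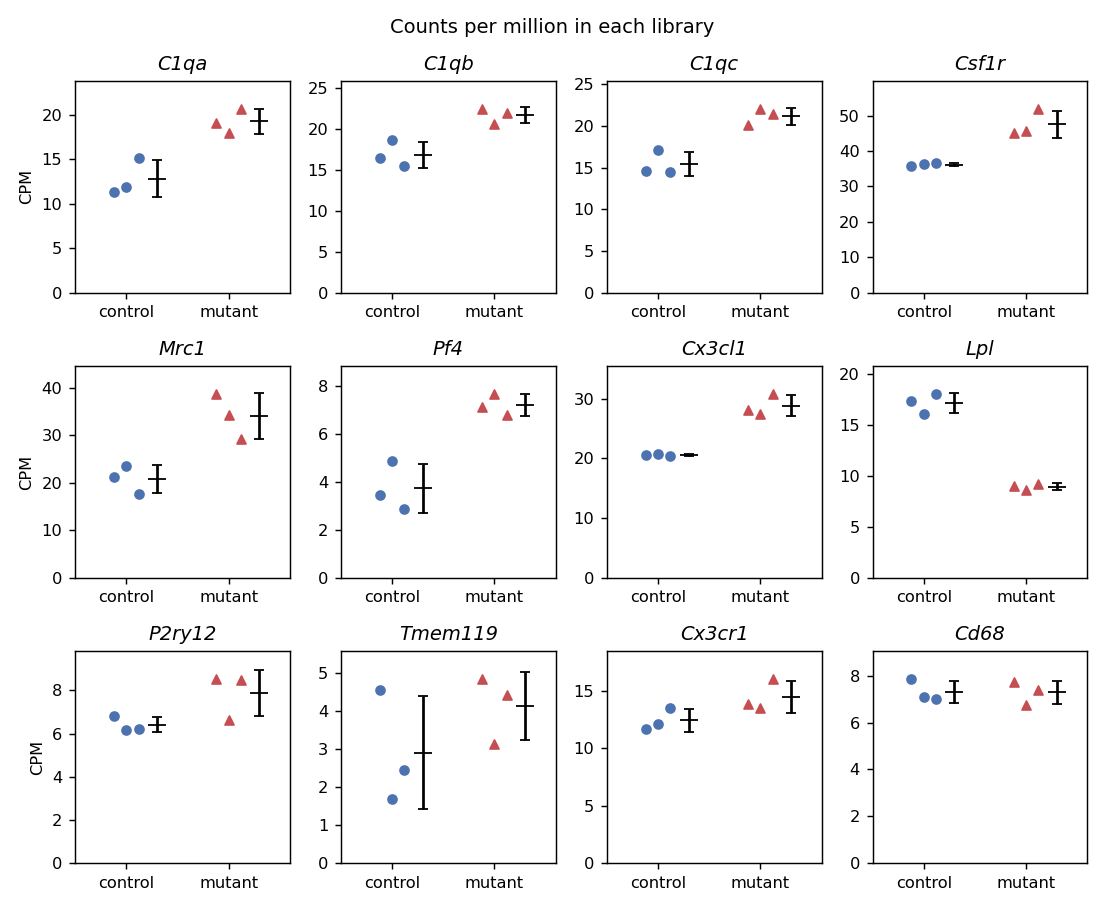
CPM of 12 genes in each library, 1 panel per gene on an axis from 0, with circles for controls, triangles for mutants, and the mean ± SD of each group (n = 3) beside the points. Mutant points lie above control points for the 3 C1q chains, *Csf1r*, *Cx3cl1*, *Mrc1* and *Pf4*, below them for *Lpl*, and among them for *Tmem119* and *Cd68*.

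Among genes of phagocytosis and activation, small differences toward the mutant stood beside a clear fall of *Lpl*. The 10 genes had a median log2 fold change of 0.17, 7 were higher and 3 were lower, and their summed level of 63.8 to 66.7 CPM in controls lay within the 59.2 to 70.9 CPM of mutants. Without *Lpl* the other 9 summed to 49.3, 47.9 and 45.7 CPM in controls and to 61.9, 50.6 and 54.9 CPM in mutants, which did not overlap and gave a fold of 1.17. None passed upward at an adjusted p of 0.05, 1 did at an unadjusted p of 0.05 (edgeR), and with DESeq2 or limma *Lpl* alone passed. *Cd68*, a lysosomal glycoprotein of active phagocytes, was counted at 7.88, 7.10 and 6.999 CPM in controls and at 7.73, 6.78 and 7.41 CPM in mutants. These values interleave, with an adjusted p of 0.991 (edgeR). *Trem2*, a lipid receptor of phagocytes, had a log2 fold change of 0.09 with a standard error of 0.22, and its partner *Tyrobp* one of 0.24 with a standard error of 0.19. *Tyrobp* was counted at 6.57, 5.40 and 4.82 CPM in controls and at 7.90, 6.45 and 5.42 CPM in mutants, which overlapped. *Fcer1g*, the shared signalling chain of Fc receptors, was at 5.52 to 6.38 CPM in controls and 6.06 to 10.2 CPM in mutants (log2 fold change 0.50, adjusted p = 0.0886, edgeR). *Fcgr3*, a receptor for antibody-coated material, was at 4.69 to 5.46 and 5.73 to 8.13 CPM, without overlap (adjusted p = 0.135). The secreted phosphoprotein *Spp1* had a log2 fold change of 0.24, and the lysozyme gene *Lyz2*, whose reads can be shared with its near copy *Lyz1*, one of 0.21. The endotoxin co-receptor *Cd14* (−0.15) was counted at 9 to 18 reads per library and *Gpnmb* (0.12) at 4 to 30, too few to show a small difference.

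*Lpl*, lipoprotein lipase, which releases fatty acids from lipoproteins, was the exception and fell. The gene (ENSMUSG00000015568, chr8:68880491-68907448, plus strand) was counted at 17.4, 16.1 and 18.04 CPM in controls and at 8.998, 8.60 and 9.22 CPM in mutants. The groups were far apart and each was tight, with means of 17.2 ± 0.999 and 8.94 ± 0.312 CPM (SD, n = 3). The log2 fold change was −0.94 with a standard error of 0.10 (adjusted p = 0.000182, edgeR), and the call held in all 15 other fits. *Lpl* is also expressed outside microglia. The granule neuron progenitor markers fell in the same libraries, 6 of 6 that reached the filter's minimum in every library at an adjusted p under 0.05 (12.9% of all genes fell), with a summed fold of 0.349 for all 7, and their part in the *Lpl* difference was not tested.

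Homeostatic genes were set against those of phagocytosis and activation within each library. The median log2 level of the phagocytic class, relative to the mean of the controls, minus that of the homeostatic class was 0.13, −0.27 and 0.15 in controls and 0.15, −0.04 and −0.19 in mutants. These values overlapped, so no shift between the classes was seen at the level of the typical gene. On sums, phagocytic over homeostatic CPM was 2.40, 2.21 and 2.34 in controls and 2.14, 1.92 and 1.72 in mutants, all lower. With *Lpl* left out the ratio was 1.78, 1.66 and 1.68 in controls and 1.86, 1.64 and 1.47 in mutants, and the groups overlapped. The difference in the summed ratio thus rested on *Lpl*. The median log2 fold change of the phagocytic class was 0.083 without control 2 and 0.092 without mutant 3.

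The border macrophage genes showed the largest rises. *Mrc1* (ENSMUSG00000026712, chr2:14229392-14332057, plus strand), the mannose receptor CD206, was counted at 21.3, 23.6 and 17.6 CPM in controls and at 38.8, 34.2 and 29.3 CPM in mutants. *Pf4* (ENSMUSG00000029373, chr5:90772435-90773383, plus strand), a chemokine of border macrophages and platelets, was counted at 3.45, 4.88 and 2.89 CPM in controls and at 7.15, 7.69 and 6.79 CPM in mutants. Neither gene overlapped between the groups, and control 3 was the lowest library for both. The log2 fold changes were 0.71 ± 0.13 (± standard error, adjusted p = 0.00333) and 0.95 ± 0.20 (adjusted p = 0.00728), all from edgeR. Both passed an adjusted p of 0.05 in all 15 other fits. At 0.01, *Mrc1* was lost without control 1 (0.0105), control 3 (0.0143) or mutant 1 (0.0151), and with limma on log2 FPKM with a pseudocount of 1 (0.0134) or 0.1 (0.0128). *Pf4* was lost there without control 1 (0.0261), control 3 (0.0265), mutant 1 (0.0246), mutant 2 (0.0154) or mutant 3 (0.0200).

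Further border macrophage markers moved the same way. Of 10 such markers outside the 34 genes, 9 were tested and 5 of these reached the filter's minimum in every library. All 5 were higher in mutants, and 4 rose at an adjusted p under 0.05 (12.2% of all genes did). *F13a1*, a coagulation factor chain made by macrophages, was at 10.6 to 15.9 CPM in controls and 18.5 to 24.9 CPM in mutants (log2 fold change 0.78, adjusted p = 0.00607, edgeR). *Cbr2*, a carbonyl reductase, was counted 10, 4 and 5 times in controls and 58, 32 and 21 times in mutants (2.44, adjusted p = 0.00501, edgeR). It passed the filter through the mutants alone, so its test adds nothing to that count. Most meningeal fibroblast markers moved with them. 6 of these 8 rose at an adjusted p under 0.05, and the other 2 were lower without passing. The 8-gene sum was 417 to 451 CPM in controls and 624 to 757 CPM in mutants, a fold of 1.56. The summed fold of *Mrc1* and *Pf4* was 1.68, at 20.5 to 28.4 and 36.1 to 45.9 CPM. Divided by the meningeal sum, they stood at 0.0548, 0.0667 and 0.0492 in controls and at 0.0606, 0.0657 and 0.0577 in mutants, which overlapped. How much meninges each dissected cerebellum kept was not tested. The sum of 7 endothelial markers did not rise, at 390 to 438 CPM in controls and 383 to 395 CPM in mutants. Of the 7, 6 were lower and 1 higher. Only *Kdr* passed an adjusted p of 0.05, downward (12.9% of all genes fell). Its log2 fold change was −0.23 (adjusted p = 0.0371, edgeR), and it passed in 8 of 15 other fits.

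Markers of neutrophils and lymphocytes were near 0. The 9 neutrophil markers summed to at most 3.65 CPM in any library and 8 lymphocyte markers to at most 1.99 CPM, with *Nkg7* at 0 in all 6, and erythrocyte markers overlapped at 98.7 to 106 CPM in controls and 82.2 to 117 CPM in mutants. For monocytes and mast cells the markers that passed the filter, *Fn1*, *Vcan* and *Kit*, are also made by brain cells, and no other marker of these cells reached the filter. The monocyte list summed to 443 to 580 CPM in controls and 534 to 666 CPM in mutants. The mast cell list, nearly all *Kit*, summed to 163 to 167 CPM and 197 to 214 CPM without overlap, and *Kit* rose (log2 fold change 0.31, adjusted p = 0.00111, edgeR).

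**Figure D4:**
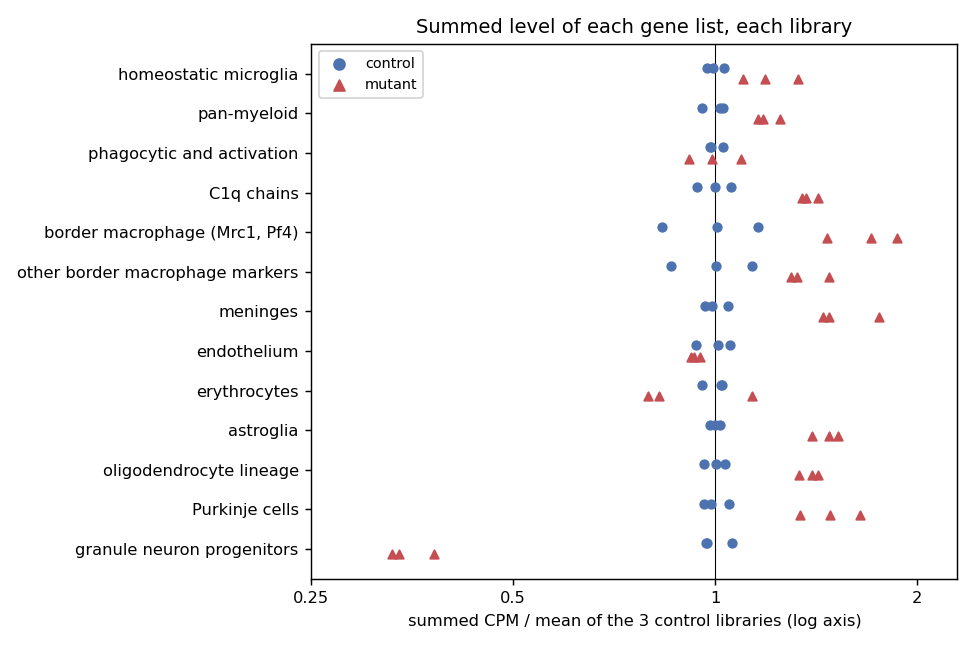
Summed CPM of gene classes and of marker lists for other cell types, each divided by the mean of the control libraries, with 1 point per library on a log axis. The homeostatic and general myeloid (pan-myeloid) classes, C1q chains and border macrophage genes lie above the controls. Meningeal, astroglial, oligodendrocyte lineage and Purkinje cell markers do so too. The phagocytic class with *Lpl* included lies around 1, and granule neuron progenitor markers fall to 0.349 of the control mean.

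Promoter sequence was available for 25 of the 34 genes, from RefSeq on GRCm38.p6, as windows of 250 bases before to 50 bases after each start. PU.1, the product of *Spi1*, binds purine-rich DNA built on the letters GAGGAA. These letters were searched on both strands. They stood in the windows of 15 of the 25 genes (60.0%) and in those of 31.3% of all 27025 genes with a window. The longer form GAGGAAGT, of which GAGGAA is the first part, stood in 4 of the 25, *Ctss*, *C1qc*, *Spp1* and *Pf4*, and in 3.69% of all genes. Windows of 4 genes that rose are shown 5′ to 3′ on the gene's strand, with GAGGAA or its reverse complement TTCCTC in capitals. They are *C1qb* at chr4:136886151-136886450 on the minus strand, *C1qc* at chr4:136892865-136893164 on the minus strand, *Mrc1* at chr2:14229164-14229463 on the plus strand and *Pf4* at chr5:90772185-90772484 on the plus strand.
C1qb: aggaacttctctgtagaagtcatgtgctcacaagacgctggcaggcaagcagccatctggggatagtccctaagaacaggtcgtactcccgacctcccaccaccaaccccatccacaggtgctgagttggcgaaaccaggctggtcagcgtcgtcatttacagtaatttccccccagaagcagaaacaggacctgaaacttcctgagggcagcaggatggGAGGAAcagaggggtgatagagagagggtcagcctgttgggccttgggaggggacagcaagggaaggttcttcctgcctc
C1qc: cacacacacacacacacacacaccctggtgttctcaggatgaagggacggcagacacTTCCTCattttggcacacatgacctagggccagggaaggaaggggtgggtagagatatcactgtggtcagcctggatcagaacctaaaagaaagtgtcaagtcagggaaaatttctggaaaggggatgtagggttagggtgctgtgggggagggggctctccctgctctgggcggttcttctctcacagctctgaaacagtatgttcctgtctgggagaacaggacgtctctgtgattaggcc
Mrc1: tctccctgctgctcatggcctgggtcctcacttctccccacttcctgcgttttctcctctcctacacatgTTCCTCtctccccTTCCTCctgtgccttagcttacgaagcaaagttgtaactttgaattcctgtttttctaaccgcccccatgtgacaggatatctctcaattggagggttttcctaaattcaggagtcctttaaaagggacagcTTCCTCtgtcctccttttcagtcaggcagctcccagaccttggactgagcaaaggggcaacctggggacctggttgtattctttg
Pf4: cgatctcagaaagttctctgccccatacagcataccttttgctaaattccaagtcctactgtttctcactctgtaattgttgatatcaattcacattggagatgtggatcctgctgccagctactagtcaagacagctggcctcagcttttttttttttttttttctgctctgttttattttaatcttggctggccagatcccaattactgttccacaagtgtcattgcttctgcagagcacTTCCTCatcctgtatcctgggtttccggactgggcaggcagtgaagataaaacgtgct
*C1qb* holds 1 match, *C1qc* 1, *Mrc1* 3 and *Pf4* 1. In *C1qc* and *Pf4* the match extends to the longer form. A match describes the letters of the window and does not show that PU.1 binds there. The same letters also stand in windows of genes that did not pass, *P2ry13* among them.

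Other genes of microglia, from a list of 27, leaned higher, but the share that passed was near that of all genes. All 27 were tested, 20 were higher and 7 lower in mutants, with a median log2 fold change of 0.18. At an adjusted p under 0.05, 4 rose (12.2% of all genes did) and none fell (12.9% did), also at an unadjusted p under 0.05. In 5 all mutant libraries lay above all controls and in 2 all lay below, where 20.4% and 20.1% of all tested genes did. *Lair1*, an inhibitory collagen receptor of leukocytes, rose most clearly, from 4.56, 5.40 and 5.01 CPM in controls to 10.04, 10.4 and 11.3 CPM in mutants. The groups were far apart, with a log2 fold change of 1.08 (adjusted p = 0.000407, edgeR). *Olfml3*, a secreted matrix protein typical of microglia, was at 10.4 to 13.3 and 16.0 to 17.999 CPM (0.58, adjusted p = 0.00577, edgeR). *Rgs10*, a regulator of G protein signalling, rose by 0.46 on the log2 scale (adjusted p = 0.0214, edgeR). *Rgs10* passed 0.05 in 12 of 15 other fits, with the largest adjusted p, 0.0618, without control 2, and it did not pass without control 3 or mutant 1 either.

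Beyond C1q, 7 of 14 other complement components and receptors passed the filter, 6 of them by reaching its minimum in every library. Of these 6, 2 rose and 1 fell at an adjusted p under 0.05, where 12.2% and 12.9% of all genes did. *C1s1* passed the filter through the mutants alone, at 5, 9 and 9 counts in controls and 22, 17 and 19 in mutants, and is not counted. *C4b*, the component cleaved after C1, was at 2.86, 1.63 and 2.57 CPM in controls and at 3.75, 7.95 and 5.23 CPM in mutants. The groups were separate but mutants were widely spread (log2 fold change 1.25, standard error 0.31, adjusted p = 0.0148, edgeR), and without control 2 the call was lost (0.0576). *Masp1*, a protease of the lectin pathway, rose by 0.50 on the log2 scale (adjusted p = 0.00281) and *Cd93*, which is also an endothelial receptor, fell by 0.23 on that scale (adjusted p = 0.0136, edgeR), the latter not without control 3 (0.0503). Of 16 complement regulators, 5 rose at an adjusted p under 0.05 (12.2% of all genes did) and none fell (12.9% did), also at an unadjusted p under 0.05. The fluid-phase inhibitors *Vtn* (0.69, adjusted p = 0.000129) and *Clu* (0.63, adjusted p = 0.0018) were the strongest (edgeR). Both are made mostly by other cells than microglia, and the 8 astroglial markers were also higher, with a summed fold of 1.47. The part of other cell types in these differences was not tested.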

How the data were processed

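mRNA of P1 cerebellum was measured in 6 libraries, 3 labelled control and 3 labelled mutant, and samples were grouped by these labels alone. The authors aligned the cleaned paired-end reads to mm10 with HISAT2 2.0.5 and deposited unnormalized counts per gene from featureCounts 1.5.0-p3, together with FPKM values that the authors computed from counts and gene length. Which annotation was used, whether strand was counted and how multi-mapping reads were treated is not given in the sources used here. Whether same-numbered libraries share a litter, or each library is a separate animal, is not stated, so p-values measure the spread between these libraries.

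Mutants were compared with controls on the counts by the quasi-likelihood test of edgeR 4.0.16 under R 4.3.3, after filterByExpr and TMM scaling, and p-values were adjusted by Benjamini-Hochberg over all 17505 genes that passed the filter. Genes were called at a log2 fold change beyond 0.5 with an adjusted p under 0.01, and separately at an adjusted p under 0.05. The common dispersion was 0.0105. With 3 libraries a group an exact permutation test cannot reach 0.05, so the model across genes was used. Same-group libraries differed by more than sampling noise. CPM used TMM-scaled totals, and the floor of 3 counts covers counting error only. The fit was tested on simulated counts with 200 changed genes.

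Alternatives were DESeq2 1.42.0, its size factors, library size alone, no filter, at least 10 counts in every library, the replicate number as a block, a Y-chromosome covariate, limma 3.58.1 on log2(FPKM + 1) and log2(FPKM + 0.1), and each library left out in turn. The genes examined and all gene lists were chosen with earlier results of these data known, so lists are described by counts and medians with no test of their own. Values in every library are given for each gene called, for *Csf1r* and its ligands, and for the gene of highest mean FPKM and of smallest p in each class, and from each other list at most the 3 called genes of smallest p are named. *Cd68*, *Ptprc*, *Tmem119* and the remaining genes are named because all 34 are accounted for. *C1s1*, *Fn1*, *Vcan*, *Kit*, *Nkg7* and *Il6* were named after their values were seen.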

Additional observations from a re-analysis of the deposited data

How the results depend on the processing

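None of the values recomputed under these alternatives changed direction past a threshold. The 1165 genes called over the whole table became 771 with limma on log2(FPKM + 1), 4388 when the adjusted p was set at 0.05 without a fold threshold, and between 841 and 1347 when single libraries were dropped. The 4 called genes among the 34 became 9 at an adjusted p of 0.05 without a fold threshold, and between 1 and 4 with each library left out. At that looser threshold, 7 to 9 passed with each library left out. The homeostatic median log2 fold change lay between 0.19 and 0.32, and the phagocytic one between 0.083 and 0.21 in these runs. With the replicate number as a block, 1257 genes were called, 4 of them among the 34. The numbers were not taken to pair the samples, since same-numbered deviations correlated at 0.24, 0.26 and −0.16. Control 1 correlated best with mutant 3 (0.27), and control 3 with mutant 2 (0.23). Positive correlations stood only between libraries alike in whether *Ddx3y* was counted. With a Y-chromosome covariate, 4 of the 34 genes were called and 9 passed an adjusted p of 0.05. Judged by the stricter thresholds alone (log2 fold change beyond 0.5, adjusted p under 0.01), 207 recomputed values of 15 single genes kept their side, 14 lost it and 4 gained it. Losses and gains at 0.05 stand beside each gene. At 15391854 to 17178478 counts per library, differences in genes under 100 counts, such as *C3*, *Cd14*, *Gpnmb* and *Tmem119*, could be seen only where large.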

Other observations

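Genes of clearance and its control that many cell types share were mostly higher in mutants. Of 19 engulfment receptors and bridging molecules, 16 were higher and 3 lower. Of the 19, 10 rose and 1 fell at an adjusted p under 0.05 in edgeR, where 12.2% and 12.9% of all tested genes did. *Sirpa*, the receptor for the signal that protects cells from phagocytosis, was at 97.0 ± 3.94 CPM in controls and 145 ± 3.83 CPM in mutants (SD, n = 3; log2 fold change 0.58, adjusted p = 5.89e-05, edgeR). The lipoprotein receptor *Lrp1* rose by 0.41 and the receptor tyrosine kinase *Axl* by 0.45 on the log2 scale. Of 18 lysosome genes, 17 were tested and all 17 were higher, where 49.1% of all tested genes were. At an adjusted p under 0.05 in edgeR, 7 rose (12.2% of all tested genes did). Among them were the saposin precursor *Psap* (0.35), *Lamp1* (0.25) and the protease *Ctsd* (0.22). Of 15 genes of amoeboid microglia of the early postnatal brain, 13 were tested, and 12 were higher and 1 lower. At an adjusted p under 0.05 in edgeR, 7 of the 13 rose and 1 fell, where 12.2% and 12.9% of all tested genes did. The lipid carrier *Apoe* rose by 0.69 (adjusted p = 4.18e-05, edgeR) and the intermediate filament *Vim* by 0.47, while the tetraspanin *Cd63* was at −0.39. *Apoe* and *Vim* are also abundant in astroglia, whose 8 markers summed to 2574 to 2656 CPM in controls and 3654 to 3986 CPM in mutants. The part of astroglia in these differences was not tested.

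Inflammatory genes were mostly too low to test. Of 18 cytokines and chemokines, 4 passed the filter, 1 of them through the mutants alone, and none passed an adjusted p of 0.05 in edgeR or DESeq2. 1 did at an unadjusted p of 0.05 and 1 with limma, and *Il6* was at 0 in every library. Of 16 interferon response genes, 14 were tested. Of these, 12 reached the filter's minimum in every library and 2 passed it through the mutants alone. None of the 14 rose at an adjusted p under 0.05 in edgeR, and DESeq2 and limma gave 0 calls. At an unadjusted p under 0.05 (edgeR), 3 of the 14 were higher and 2 lower. *Stat2* fell by 0.27 (adjusted p = 0.0396, edgeR), a call kept in 6 of 15 other fits, with an adjusted p of up to 0.114 without mutant 2. All 10 genes of TGF-beta signalling, on which microglial identity depends, were tested. With edgeR, 1 passed 0.05 upward and 2 passed downward, near the background shares of 12.2% and 12.9%. The part of other cell types in these calls was not tested. *Smad3* rose (0.39) and *Smad4* fell (−0.42), both in all 15 other fits. *Smad2* fell (−0.42, adjusted p = 0.0277, edgeR) but passed 0.05 in 11 of 15 other fits, with an adjusted p of up to 0.106 without control 3, and it did not pass without control 2, mutant 1 or mutant 3 either. Of 8 oligodendrocyte lineage markers, 6 rose and 1 fell at an adjusted p under 0.05, where 12.2% and 12.9% of all genes did. Choroid plexus markers summed to 131 to 199 CPM in controls and 223, 35.6 and 778 CPM in mutants.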
